A study of Mus musculus with 8 samples.

Results

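The genes described here are 9 members of the renin-angiotensin and bradykinin systems, Agt, Ren1, Atp6ap2, Ace, Enpep, Agtr1a, Agtr2, Bdkrb1 and Bdkrb2. They were chosen by name, as every non-control probe whose RefSeq accession belongs to one of these genes, which gave 12 probes for 9 of the 31185 genes tested. RNA came from whole kidney rudiments of mouse embryos at E13.5, a stage in mid-gestation at which the ureteric bud (the epithelial outgrowth that forms the collecting ducts) branches into nephron-forming mesenchyme. The group labelled mutant lacks both HDAC1 and HDAC2, histone deacetylases that remove acetyl groups from histones, in the ureteric bud (UB HDAC1,2-/-), and the other group is labelled wild type. Both groups are of a mixed CD1 and C57BL/6 strain background. The Cre line behind the deletion is not given in the sources used here, nor is the number of embryos behind each RNA. There were 4 biological replicates, each 1 mutant and 1 wild type RNA hybridised together on 2 two-colour Agilent arrays with the dyes (Cy3 and Cy5) exchanged, which makes 8 arrays; slide 1 carried replicates 1 and 2, and slide 2 the others. Per its label the deletion concerns 1 epithelium of the organ, while RNA was taken from all of it, so fewer cells of a type and less RNA per cell cannot be told apart.

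In the renin-angiotensin system, the protease renin cuts angiotensinogen to angiotensin I, angiotensin-converting enzyme (ACE) makes angiotensin II from it, and angiotensin II acts through type 1 and type 2 receptors until aminopeptidases shorten it. ACE also breaks down bradykinin, a kinin cut from kininogen by kallikrein that acts on the B1 and B2 receptors. Mice lacking parts of the renin-angiotensin system have malformed kidneys, with a thinned papilla and thickened vessel walls, and both systems are active in the developing kidney.

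The values given are log2 ratios of labelled mutant to labelled wild type RNA, averaged over both dye orientations of a replicate, or levels, which are normalized log2 intensities of 1 RNA over both dyes. Signs follow the dyes named in the labels. They are open to doubt, because in the authors' deposited table all 309 entries whose identifier has 1 probe carry the opposite sign, and that table states no direction. Hdac2, one of the deleted genes, had ratios of 0.45, 0.40, 0.61 and -0.43 in replicates 1 to 4, a mean of 0.26 ± 0.47 (SD, n = 4), above 0 in the RNA labelled mutant in 3 of 4 replicates; where its probe lies relative to the deleted stretch is not known here. Hdac1 is not analysed here. Should the direction of that table be mutant over wild type, every sign below would turn. The RNAs called mutant and wild type would also swap throughout. The RNA called the wild type RNA of replicate 2 would then be a mutant RNA. All 14 markers of the kidney rudiment were well above background in both RNAs on all 8 arrays. The same held for 773 of 992 olfactory and vomeronasal receptor genes and 6 of 7 liver markers measured. This flag therefore does not by itself show that a gene is expressed. Between 79.2% and 97.1% of spots per channel were well above background, and none was saturated. The wild type RNA of replicate 2 stood apart from the other 7. The SD of its deviations was 0.523 log2 units against 0.215 to 0.252 in the others, and 1299 of 31043 genes (4.18%) were more than 1 log2 unit above all other RNAs, while no other RNA had more than 2 such genes. Markers of other organs were uneven there. Their summed linear levels in that RNA were 27800 for the adrenal cortex, against 13890 to 17939 in the other 7. They were 3515 for the liver, against 1511 to 1690, and 13277 for the gonad, against 5330 to 7998. The median deviation of the markers from their own means over the RNAs was -0.14, -0.10 and -0.12 log2 units. The raised sums thus did not extend to the median marker of these lists. The erythroid sum was the lowest of all RNAs, at 109687 against at least 137659. Their part in the values of replicate 2 was not tested. Ratios of replicate 2 correlated at 0.69 across genes between its dye orientations, against 0.09, -0.28 and -0.23 in replicates 1, 3 and 4. So across genes only the ratios of replicate 2 repeated well between its dye orientations. Because its wild type RNA stood apart, means are also given without replicate 2. Those means rest on replicates 1, 3 and 4, whose orientations correlated weakly or negatively, and are not thereby the sounder values.

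None of the 9 genes passed limma's test at an adjusted p of 0.05 (0 of 9, beside 0% of all 31185 genes). Enpep, which encodes the angiotensin II-shortening aminopeptidase A, had the largest ratio, above 0 in all 4 replicates. One of the 9 (11.1%) had an unadjusted p under 0.05, beside 5.9% of all genes, and 1 of the 9 had the same sign in all 4 replicates, beside 14.5% of 31043 genes with 4 values. That gene, Enpep, was above 0 in all 4, as were 8.66% of all genes, and no member was below 0 in all 4, beside 5.8%. Without replicate 2, Enpep and Ren1 had an unadjusted limma p under 0.05 (0.00181 and 0.0191), beside 7.01% of all genes. As reported, 5 ratios lay above 0 and 4 below, with a median of 0.02 against -0.02 over all genes. Replicate 2 held the largest absolute ratio in 7 of the 9 genes (77.8%), compared with 58.6% of all genes.

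**Figure D1:**
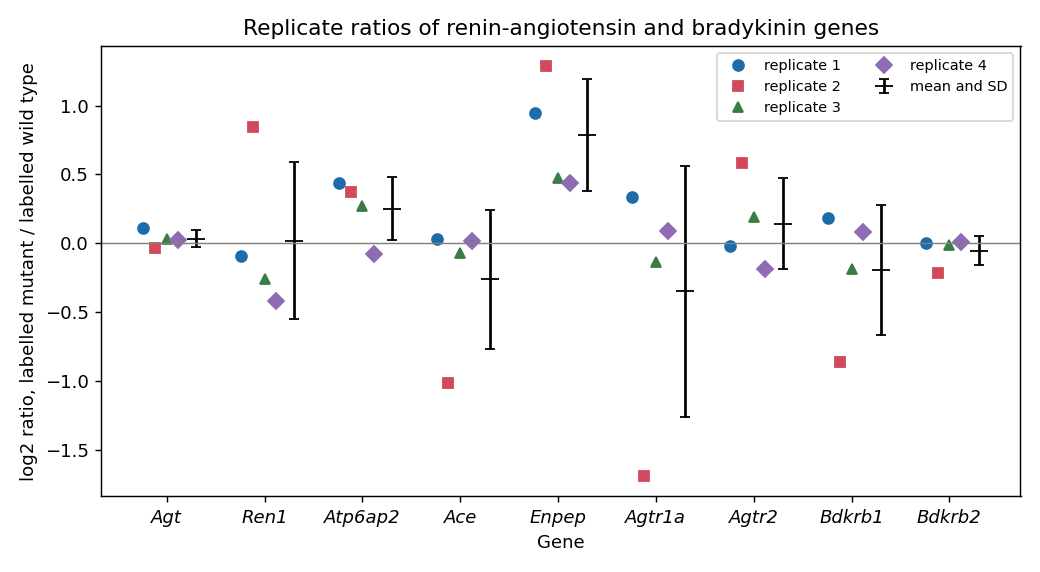
Log2 ratio of the labelled mutant over the labelled wild type RNA in each of 4 replicates (points) for the 9 genes, with the mean and SD (bars). Only Enpep lies above 0 in all 4 replicates, between 0.44 and 1.28, while replicate 2 is far from the other 3 for Ren1, Ace, Agtr1a and Bdkrb1.

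The promoters of 3 genes are shown. Enpep had the largest ratio, Atp6ap2 the next smallest p, and Ren1 changed sign without replicate 2, as did Agtr1a, Agtr2 and Bdkrb1. Sequences are those of RefSeq (GRCm38.p6), the 250 bases before the annotated start, read 5′ to 3′ on the gene's strand, with capitals marking matches on either strand to TATAAA (the TATA box), to CCAAT (the CCAAT box) or to GGGCGG (the GC box).
Enpep (chr3:129332750-129332999, minus strand): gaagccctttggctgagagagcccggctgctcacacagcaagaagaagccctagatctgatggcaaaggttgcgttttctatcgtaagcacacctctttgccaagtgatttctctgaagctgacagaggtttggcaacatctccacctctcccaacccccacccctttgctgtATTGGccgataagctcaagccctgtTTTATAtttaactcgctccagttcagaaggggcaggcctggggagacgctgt
Atp6ap2 (chrX:12587509-12587758, plus strand): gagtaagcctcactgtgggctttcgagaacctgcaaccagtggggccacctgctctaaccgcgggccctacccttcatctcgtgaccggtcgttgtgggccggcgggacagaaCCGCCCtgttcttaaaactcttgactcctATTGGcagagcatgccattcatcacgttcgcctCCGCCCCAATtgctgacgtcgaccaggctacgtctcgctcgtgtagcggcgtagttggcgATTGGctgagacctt
Ren1 (chr1:133350424-133350673, plus strand): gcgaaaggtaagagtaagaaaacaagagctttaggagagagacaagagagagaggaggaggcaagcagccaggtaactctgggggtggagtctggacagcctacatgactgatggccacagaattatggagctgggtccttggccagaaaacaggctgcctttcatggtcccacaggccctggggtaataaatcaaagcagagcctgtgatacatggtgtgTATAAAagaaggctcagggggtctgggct
A TATAAA match begins at position -29 from the start in Ren1 and, on the other strand, at -52 in Enpep, and 12.4% of all 32851 promoters of this length hold one. Enpep also has 1 CCAAT match, as do 33.8% of all promoters. Atp6ap2 has no TATAAA match in this window, 3 CCAAT box matches, 2 GC box matches (32.7% of all promoters hold at least 1) and 20 CG pairs, against a median of 6 over all promoters. In Atp6ap2 a GC box match and a CCAAT box match overlap by 1 base. Ren1 has 1 CG pair and Enpep 6. Promoters of 7 of the 9 genes were matched, and Agt and one of the 2 Ace promoters also hold a TATAAA match, at -30 and -31. Agtr1a and Bdkrb1 are named only. The array carried no measurement of these regions, so the matches describe the letters and nothing else.

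Agt encodes angiotensinogen, the precursor of all angiotensins. Its ratios were 0.11, -0.03, 0.03 and 0.02 in replicates 1 to 4, with a mean of 0.03 ± 0.06 (SD, n = 4; limma adjusted p = 0.851). The mean was 0.056 without replicate 2 and 0.0067 without replicate 1. Its level was 7.47, 7.32, 7.43 and 7.54 in the mutant RNAs and 7.35, 7.36, 7.40 and 7.51 in the wild type RNAs. The groups overlap completely at a signal only 1.81 to 5.30 times the local background, and the probe was well above background on 7 of 8 arrays in each RNA.

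Ren1 encodes renin, made by cells along the renal arteries and later confined to the juxtaglomerular arterioles. Its brighter probe read 9.43, 9.54, 9.54 and 9.41 in the mutant RNAs and 9.52, 8.69, 9.80 and 9.83 in the wild type RNAs. The mutant RNAs lie close together, and the wild type RNA of replicate 2 is the lowest of all 8 by 0.71 log2 units. The ratios were -0.09, 0.85, -0.26 and -0.42, a mean of 0.02 ± 0.57 (SD, n = 4; limma adjusted p = 0.984). Without replicate 2 the mean was -0.26 ± 0.17 (SD, n = 3), with a limma adjusted p of 0.575, so the direction of this gene rests on that replicate. The dye orientations differed too, at -0.29 with the mutant in Cy5 and 0.32 with the mutant in Cy3. A second Ren1 probe gave -0.23, 0.01 and -0.03 in replicates 1, 2 and 4 (mean -0.08 ± 0.13, SD, n = 3; in replicate 3 an outlier spot leaves no value), and did not show the high ratio of replicate 2. Ren2, a near-identical copy carried by some strains, read -0.14, 0.54, -0.07 and -0.38, a pattern like that of the brighter Ren1 probe, and the 2 genes may share signal. Of 12 markers of mural and renin cells, 3 had ratios above 0 and 9 below, with a median of -0.05, and their summed linear levels ran from 39997 to 48821 in the mutant and 44400 to 53656 in the wild type RNAs. Their part in the Ren1 values was not tested.

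Atp6ap2 encodes the (pro)renin receptor, which binds renin and prorenin and is also an accessory subunit of the vacuolar proton pump. Its level was 11.50, 11.56, 11.66 and 11.40 in the mutant RNAs and 11.07, 11.19, 11.38 and 11.47 in the wild type RNAs. In replicates 1 to 3 the mutant RNA was the higher of the pair, and replicate 4 went the other way. The ratios of 0.43, 0.37, 0.27 and -0.08 gave a mean of 0.25 ± 0.23 (SD, n = 4; limma adjusted p = 0.804), and 0.21 without replicate 2. The mean depended on the dye, at 0.06 with the mutant in Cy5 and 0.45 with the mutant in Cy3. Slide 1 gave 0.40 and slide 2 gave 0.10.

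Ace encodes the enzyme that makes angiotensin II and inactivates bradykinin, found on endothelium and later on the proximal tubule. Its brighter probe read 10.15, 10.15, 9.59 and 9.60 in the mutant RNAs and 10.12, 11.16, 9.67 and 9.59 in the wild type RNAs. Averaged over dyes, partners on the same arrays lie within 0.07 log2 units of each other except in replicate 2. The wild type RNA of replicate 2 is 1.01 above the highest other RNA. That closeness holds for the averages only, since on single arrays the ratios of replicates 1, 3 and 4 ran from -0.33 to 0.36. The ratios were 0.03, -1.02, -0.07 and 0.01, a mean of -0.26 ± 0.51 (SD, n = 4; limma adjusted p = 0.804), and the mean without replicate 2 was -0.01 ± 0.06 (SD, n = 3). The second Ace probe repeated this, with -0.17, -1.24, 0.11 and -0.04. Of 10 endothelial markers, 5 had ratios above 0 and 5 below, with a median of -0.00013, and their summed linear levels were 30636 to 34508 in the mutant and 31271 to 37377 in the wild type RNAs.

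Enpep encodes aminopeptidase A, which removes the first residue of angiotensin II to give angiotensin III. Its level was 10.88, 10.56, 11.07 and 10.86 in the mutant RNAs and 9.93, 9.28, 10.60 and 10.43 in the wild type RNAs. Every mutant RNA was above its wild type partner, and the groups overlap only where the wild type RNA of replicate 3 exceeds the mutant RNA of replicate 2. The ratios were 0.95, 1.28, 0.47 and 0.44, a mean of 0.79 ± 0.41 (SD, n = 4), or 1.72-fold. The ratio was above 0 on 8 of 8 arrays, which hold the same 4 RNA pairs in both dye orientations. The share of all genes so placed was not counted. The limma standard error was 0.16, with an unadjusted p of 0.00378 and an adjusted p of 0.529 over all genes, so the difference did not pass the threshold. Without replicate 2 the mean was 0.62 ± 0.29 (SD, n = 3), or 1.54-fold, with a limma adjusted p of 0.275. The size differed between slides, at 1.12 on slide 1 and 0.46 on slide 2, and between dyes, at 0.57 with the mutant in Cy5 and 1.01 with the mutant in Cy3. The authors' deposited table is titled as genes altered at p 0.05 and 1.4-fold. Its title names no test and no adjustment, so that cutoff may differ from the adjusted p used here. Enpep is the only one of the 9 genes in it and stands at -0.838. That is close in size and opposite in sign to the scanner's own mean ratio over the 8 arrays, 0.837. Ureteric bud markers lay mostly on the same side: 11 of 14 had ratios above 0 and 3 below. Their medians were 0.46, 0.33, 0.37 and 0.52 in replicates 1 to 4. Their summed linear levels were 73096 to 88686 in the mutant and 43967 to 60204 in the wild type RNAs, with no overlap. Such sums follow the brightest markers most, and the share of all genes without overlap was not counted. The list's median ratio was 0.35, against -0.02 over all genes. Sums of the stroma markers went the other way, at 185317 to 206327 in the mutant and 207406 to 238240 in the wild type RNAs. These ranges nearly touch. Of the 12 stroma markers 2 had ratios above 0 and 10 below, with a median of -0.10. Their medians in replicates 1 to 4 were -0.02, 0.03, -0.14 and -0.25, so replicate 2 did not share the direction. All these signs follow the dye labels and share the doubt about their direction. The part of the ureteric bud markers in the Enpep result was not tested.

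**Figure D2:**
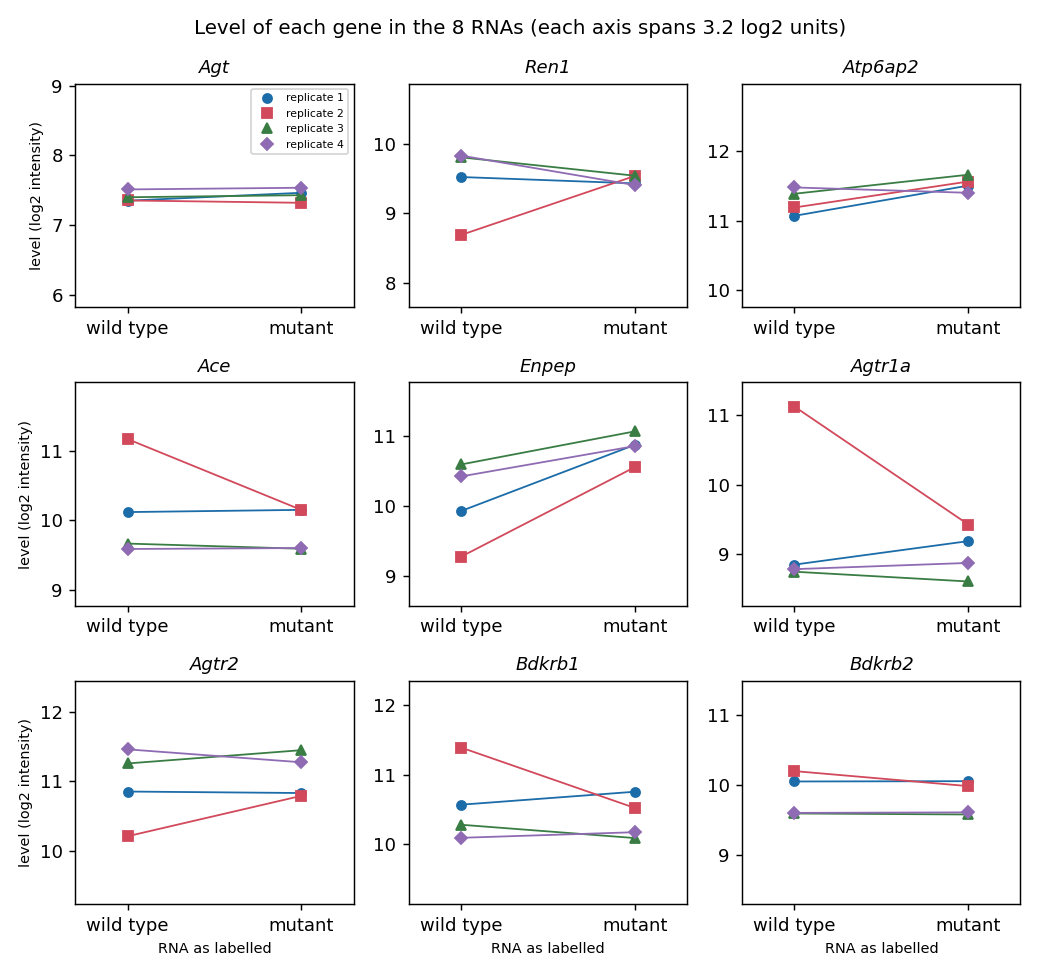
Level (normalized log2 intensity) of each gene in the wild type and mutant RNA of each replicate, with a line joining the RNAs that share arrays. All 4 lines rise for Enpep, and the wild type RNA of replicate 2 is above all others for Ace, Agtr1a, Bdkrb1 and Bdkrb2 and below all others for Ren1, Agtr2 and Enpep.

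Agtr1a encodes the main type 1 angiotensin II receptor of the mouse, which drives vessel contraction and sodium retention. Its brighter probe read 9.19, 9.43, 8.61 and 8.88 in the mutant RNAs and 8.85, 11.12, 8.75 and 8.79 in the wild type RNAs. The wild type RNA of replicate 2 is 1.69 log2 units above the next highest and the other 3 wild type RNAs lie within the range of the mutants. The ratios were 0.34, -1.69, -0.14 and 0.09, a mean of -0.35 ± 0.91 (SD, n = 4; limma adjusted p = 0.804) that became 0.10 ± 0.24 (SD, n = 3) without replicate 2. The second Agtr1a probe gave -0.10, 0.12, -0.09 and -0.02 and did not share the low ratio of replicate 2, so the probes of this gene disagree there.

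Agtr2 encodes the type 2 receptor, expressed in the fetal kidney mesenchyme and mostly lost after birth. Its level was 10.83, 10.79, 11.45 and 11.27 in the mutant RNAs and 10.85, 10.21, 11.26 and 11.46 in the wild type RNAs. The groups overlap, and all RNAs of slide 2 are above those of slide 1. The ratios of -0.02, 0.58, 0.19 and -0.19 had a mean of 0.14 ± 0.33 (SD, n = 4; limma adjusted p = 0.804), and -0.01 without replicate 2.

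Bdkrb1 encodes the B1 kinin receptor, induced by tissue injury, and Bdkrb2 the B2 receptor, the constitutive bradykinin receptor. Bdkrb1 read 10.76, 10.52, 10.09 and 10.18 in the mutant and 10.57, 11.39, 10.28 and 10.09 in the wild type RNAs, with ratios of 0.19, -0.87, -0.19 and 0.08. Bdkrb2 read 10.06, 9.99, 9.58 and 9.61 in the mutant and 10.05, 10.20, 9.59 and 9.60 in the wild type RNAs, with ratios of 0.00, -0.22, -0.01 and 0.01. In both genes replicate 2 is the lowest ratio. The means were -0.20 ± 0.47 for Bdkrb1 and -0.05 ± 0.11 for Bdkrb2 (SD, n = 4; limma adjusted p = 0.804 and 0.807). Without replicate 2 Bdkrb1 was at 0.03 and the Bdkrb2 ratios lay from -0.01 to 0.01. These Bdkrb2 ratios are averages of dye orientations that ran from -0.21 to 0.23 on single arrays. Both kinin receptors had lower levels on slide 2 than on slide 1 in each group, while the ratios within slide 2 were small, from -0.19 to 0.08.

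**Figure D3:**
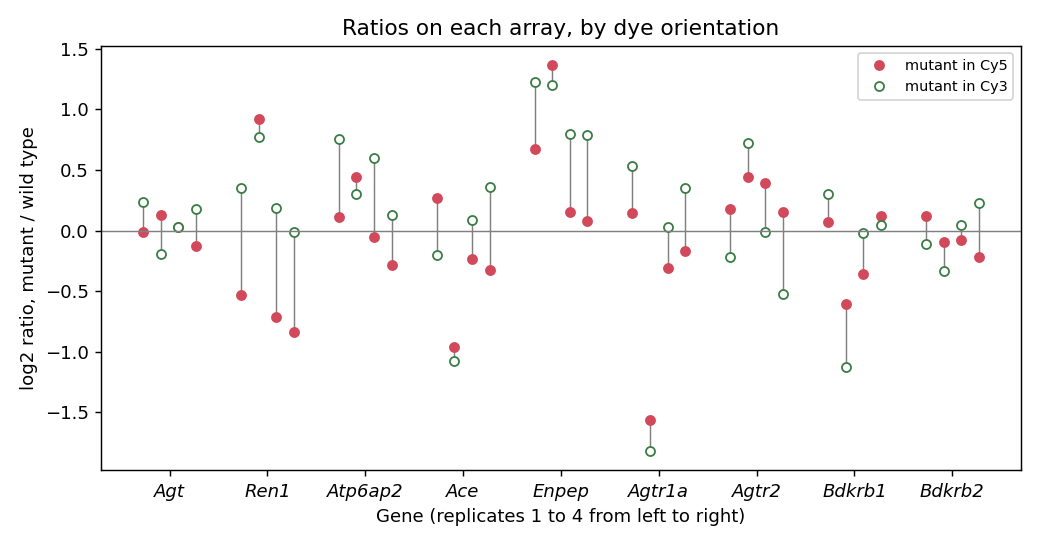
Log2 ratio of each gene on each array, with the mutant RNA in Cy5 (filled) or Cy3 (open), replicates 1 to 4 from left to right. Orientations of a replicate are joined. The mean with the mutant in Cy3 exceeds that with the mutant in Cy5 by 0.61 for Ren1 and by 0.44 for Enpep, although replicate 2 goes the other way in both. All 8 Enpep values, from the same 4 RNA pairs, are above 0.

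The rest of both systems was taken from a list of 34 further genes, of which 33 had a probe and 32 were tested; Kng2 did not pass the filter on dim probes and Mrgprd is not analysed here. None passed the adjusted threshold, 13 ratios lay above 0 and 19 below, and the median was -0.02, against -0.02 over all genes. Of the 12 angiotensin-processing genes 7 were above 0, and of the 4 receptors and receptor partners 1. Of the 5 genes listed under kinin formation 1 was above 0, and of the 7 kinin-degrading genes 3. Among the 3 genes of the mineralocorticoid arm 1 was above 0, and Ren2 was below 0. Unadjusted p-values under 0.05 were found for 2 genes with higher ratios, beside 3.25% of all genes in that direction, and for 2 with lower ratios, beside 2.65% (3 and 0 genes with median centring in place of loess). Agtrap, which binds the type 1 receptor and promotes its internalisation, read 0.06, -0.62, -0.60 and -0.34 (mean -0.37 ± 0.31, SD, n = 4; limma adjusted p = 0.793), although its 4 probes ranged from -0.37 to 0.06. Ctsd, the lysosomal protease cathepsin D, read -0.40, -0.22, -0.23 and -0.02 (mean -0.22 ± 0.16). Cpd, a carboxypeptidase, read 0.11, 0.34, 0.16 and 0.12 (mean 0.18 ± 0.11), with another probe at -0.35. Prep, prolyl endopeptidase, read 0.12, 0.10, 0.15 and 0.25 (mean 0.16 ± 0.07). The last 3 had a limma adjusted p of 0.804. Without replicate 2 the counts turned to 23 above 0 and 9 below, with a median of 0.04. The median over all genes turned from -0.02 to 0.01 as well. Agtr1b, the second type 1 receptor gene, shows that replicate's weight, with 0.19, -1.42, 0.04 and 0.04, and was named after its values were seen.

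**Figure D4:**
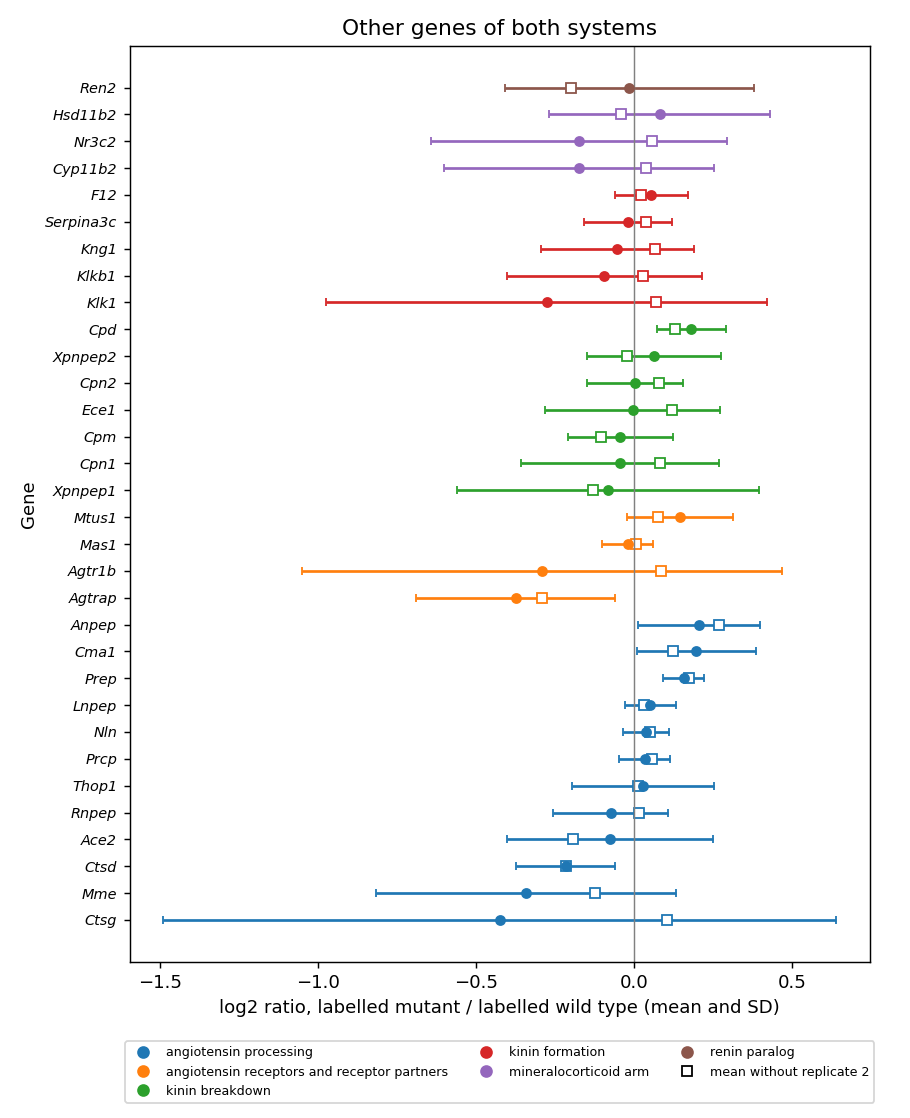
Mean log2 ratio with SD over 4 replicates for the 32 other genes tested, coloured by role, with the mean without replicate 2 as open squares. Means lie around 0, and the wide bars of Ctsg, Klk1 and Agtr1b belong to genes whose replicate 2 ratio was -2.02, -1.31 and -1.42.

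Levels over the 8 RNAs give the genes whose pattern is most like that of each of 8 members among 17048 named genes; Agt was too dim. These Pearson correlations are over points that share arrays and slides and include the wild type RNA of replicate 2, so they are descriptions. Enpep was most like Slc1a3 (r = 0.990, or 0.975 without that RNA), a glutamate transporter, and Dpp4 (r = 0.985, or 0.959), another membrane peptidase. Ren1 was most like Cpvl and Usp32 (both r = 0.981, or 0.903 and 0.922). Atp6ap2 had the lowest top values, with Topbp1 (r = 0.948) and Rpgr (r = 0.940). The 2 genes nearest Ace were Olfr577, an olfactory receptor gene, and Chrd, those nearest Agtr1a were Bst1 and Pde11a, those nearest Agtr2 were Fam13a and Zfp239, those nearest Bdkrb1 were Drc1 and Slc25a47, and those nearest Bdkrb2 were Krtap4-13 and A530064D06Rik.

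**Figure D5:**
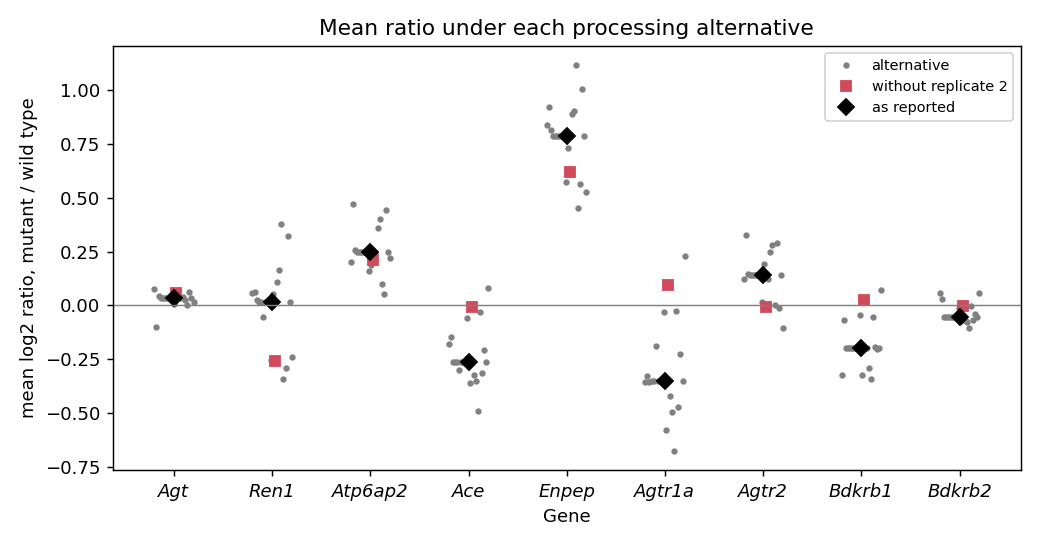
Mean log2 ratio of each gene as reported (diamond), without replicate 2 (square) and under the other processing alternatives (dots). Enpep stays between 0.46 and 1.12 and Atp6ap2 between 0.06 and 0.47, while the other 7 genes have values on both sides of 0.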

How the data were processed

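Two-colour Agilent arrays were read with Feature Extraction 10.5.1.1, per the file headers. Deposited intensity values used here are each spot's median signal and local background, not normalized. The deposited log ratio is log10 of red over green processed signal, per the file headers, and the flags are 0 or 1. The authors' deposited table holds 496 log2 ratios of genes that its title calls altered. Members and gene lists were chosen with earlier results of these data known. All 9 members with each probe are named, of the wider list the 4 genes of smallest p, and for each member the 2 genes most like it.

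Each array held 45018 spots, 1639 of them controls. Median signals were corrected with normexp (offset 50) and normalized by loess within each array, with control and outlier spots at weight 0; mean signals were not used here. Ratios were turned to labelled mutant over labelled wild type by the dye labels, and the 2 orientations averaged, so that each replicate counts once. Probes were kept if marked well above background in 1 or both channels on 4 or more of the 8 arrays (39522 of 41174), and the brightest probe stood for its gene. Genes with at least 3 replicates were tested against 0 with limma 3.58.1 in R 4.3.3, two-sided, with Benjamini-Hochberg adjustment over 31185 genes at 0.05. Symbols came from RefSeq accessions for 25097 probes. Levels used Aquantile on separate channels. The fit was tested on simulated data. Within the 4 pairs, deviations of mutant and wild type RNA from their group means correlated at 0.535 to 0.768, partners sharing their arrays, so the ratio keeps the pairing. The number of arrays limits the precision. P-values measure the spread between RNAs labelled biological replicates, whose litters are not given. The alternatives were other normalizations, offsets, filters, probe rules, blocks, weights, slides, dyes and replicates.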

Additional observations from a re-analysis of the deposited data

Results flagged for a closer look

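In 4 sets of 4 values, 1 sample lay far from the rest, its gap to the nearest neighbour as a share of the whole range passing Dixon's critical value. Among 36 sets examined, chance gives about 1 in 20.

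For the ratio of Ace (brighter probe), replicate 2 at -1.02 lay outside the other 3, which ran from -0.07 to 0.03 (gap share 0.899). On single arrays those 3 ran from -0.33 to 0.36, and replicate 2 read -0.96 and -1.07. For the level of Agtr1a in the wild type RNAs, replicate 2 at 11.12 lay above 8.75 to 8.85 (0.957). For the ratio of Bdkrb2, replicate 2 at -0.22 lay below -0.01 to 0.01 (0.9). That narrow range holds for the averages only. On single arrays replicates 1, 3 and 4 ran from -0.21 to 0.23, and replicate 2 read -0.10 and -0.33. These 3 sets, of Ace, Agtr1a and Bdkrb2, share the wild type RNA of replicate 2.

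For the second Ace probe in the mutant RNAs, replicate 3 at 8.70 lay above 8.05 to 8.12 (0.89), and its wild type partner read 8.59.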

How the results depend on the processing

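No member passed the threshold under any of 20 alternatives (19 for Agt, which the strict filter removed). Enpep ran from 0.46 to 1.12 (limma adjusted p from 0.077 to 1) and Atp6ap2 from 0.06 to 0.47, each with 1 sign throughout. Over all genes, the count called was 0 as reported, 5 with the scanner's ratios, 7 with median centring, 78 with array weights and 0 to 11 when each replicate was left out, 11 without replicate 2. Slide 2 alone gave 104 (38 higher, 66 lower) against 0 on slide 1 alone, array weights 58 higher and 20 lower, and the mutant in Cy5 alone gave 1. Median centring gave 2626 genes higher and 404 lower at an unadjusted p under 0.05, against 1015 and 825 as reported. With the 8 arrays as units and the replicate block it was 74, or 49 with a dye term added after seeing the data. With no replicate block, in separate channels rather than ratios, it was 0; these fits differ in more than the block, so its own effect was not tested. Neither fit with the block called a member.

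Signs turned as follows. Without replicate 2, Agtr1a was 0.10, Agtr2 -0.0055, Bdkrb1 0.025 and Ren1 -0.26; leaving out each replicate in turn gave -0.58 to 0.10, -0.0055 to 0.25, -0.33 to 0.025 and -0.26 to 0.16. In separate channels without its wild type RNA (added after seeing the data), Ace was 0.082, Agtr1a 0.23, Agtr2 -0.10, Bdkrb1 0.071, Bdkrb2 0.058 and Ren1 -0.24. With median centring, Agt was -0.10 and Bdkrb2 0.031, and with the scanner's ratios Bdkrb2 was 0.057. Ren1 was -0.056 as a mean over probes, -0.25 with array weights, -0.34 on slide 2 alone and -0.29 with the mutant in Cy5 alone, and Agtr2 was -0.010 with it in Cy3 alone. The causes were not tested. Signal over background limits Agt most.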

Other observations

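Across the 8 RNAs, which share arrays and slides, the levels of Ace and Bdkrb1 moved together (Pearson r = 0.984), and Agtr2 moved opposite to both (r = -0.97 with each). Ace and Bdkrb1 were lower on slide 2 and highest in the wild type RNA of replicate 2. Agtr2 was higher on slide 2 and lowest in that RNA. Such values are not particular to these systems, as Olfr577 reached r = 0.9997 with Ace. These values are given without a test. The summed linear level of 983 olfactory and vomeronasal receptor genes, a list chosen after the data were seen, was 1250710 in the wild type RNA of replicate 2, compared with 751325 to 882645 in the other 7 RNAs, and 83 of them (8.44%) were more than 1 log2 unit above all other RNAs there, as were 2 of the 9 members, Ace and Agtr1a. Macrophage markers had ratios below 0 for 8 of 9 genes, with a median of -0.28, and gonad markers above 0 for 5 of 6, with a median of 0.12.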
